A study of Mus musculus with 8 samples.

Results

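The translation initiation factor genes (symbols beginning with Eif) were followed in ventricles of mice with a cardiac knockout of Med1, a subunit of the Mediator complex. Members were all rows of the deposited expression table whose symbol begins with Eif, with no locus joined from several genes and with the Y-linked copy left out, which gave 58 of 23847 rows. Of these, 54 encode initiation factors, their regulators or relatives of them (such as Eif4a3 and Eif1ad). The other 4 (Eif2c1 to Eif2c4) are Argonaute genes, which RefSeq names Ago1 to Ago4. A number was given in every library for 57 members, and 56 of them reached a mean of 1 FPKM (fragments counted per length of transcript and per total of mapped fragments) over all 8 libraries. The lowest member above that minimum was Eif5a2, at 1.68 FPKM in the knockout and 0.952 in WT, and the member below it was Eif4e1b, at 0 in 7 libraries and 0.113 FPKM in WT 4. Eif3j1 carried no number in any library and was not tested.

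The comparison set 4 libraries against 4: ventricles of Med1 cardiac knockout mice (genotype label Med1KO) and of WT mice, which the series' design text describes as carrying the floxed allele alone (Med1 fl/fl). All mice were C57BL/6 and were taken at postnatal day 21. Ventricles were flash frozen, and poly(A) RNA was made into stranded libraries. No source used here gives the promoter that drives the deletion or says whether each library is 1 animal, so p-values measure the spread between these libraries.

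Initiation brings the small ribosomal subunit, a methionyl initiator tRNA and an mRNA together. eIF2 carries the tRNA as a ternary complex with GTP, eIF2B recharges eIF2 with GTP, and 4 kinases block that exchange by phosphorylating eIF2 alpha under stress. eIF3 scaffolds the small subunit, eIF4E binds the mRNA cap, eIF4G joins eIF4E to the helicase eIF4A, and eIF1, eIF1A, eIF5 and eIF5B govern start codon choice and joining of the large subunit. The 4E-binding proteins hold eIF4E away from eIF4G until mTOR signalling phosphorylates them. The heart depends on this machinery for growth of its muscle cells after birth.

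Med1 itself was read at 7.80, 8.37, 7.89 and 9.15 FPKM in knockout 1 to 4 and at 15.5, 16.1, 10.6 and 16.8 in WT 1 to 4. The groups did not overlap, the knockout mean was 0.563 times the WT mean, so the transcript was still read in the knockout, and the log2 change (of FPKM + 1, knockout minus WT, as for every log2 change here) was -0.74 (SE 0.13; adjusted p 0.0011 by limma across all genes; exact two-sided permutation p 0.0286, the smallest that 4 against 4 can give). Fragment totals are unknown, but steps between low values placed the depth of the 8 libraries at 0.974 to 1.10 times that of knockout 1. The 50 most abundant rows held 19.3% to 24.6% of all FPKM in the knockout and 31.1% to 33.7% in WT, and the median gene had a log2 change of 0.25 as deposited. Each member is therefore given both as deposited and after the libraries were rescaled by the median of ratios, which brought the median gene to 0.01. Here "rose" and "fell" without further words mean an adjusted p below 0.05 in that direction on both scales.

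The tissue was not uniform in its cell type markers. Of all genes tested, 44.9% were higher and 16.4% lower as deposited, and 26.9% and 26.7% were after rescaling. Of 8 cardiomyocyte markers 7 fell (6 under quantile normalisation) and 1, Actn2, rose, and their summed level was 17678 to 27357 FPKM in the knockout and 50114 to 56113 in WT. Of 5 atrial markers 4 rose, with sums of 5040 to 7931 against 192 to 378 FPKM, Nppa being most of it. Nppa was at 7296, 7829, 5018 and 5760 FPKM in knockout 1 to 4 and so was not highest in knockout 4. Sln, an atrial marker, was at 0 in every WT library, and Myl7, the atrial light chain, was at 61.6, 42.6, 2.50 and 726 FPKM in knockout 1 to 4 and 0 to 0.680 in WT, so knockout 4 stood apart. Of 6 fibroblast markers 5 were higher as deposited and 3 after rescaling, with sums of 772 to 1282 against 495 to 579 FPKM. Of 5 mural markers 2 were higher and 3 lower as deposited, with sums of 134 to 165 against 209 to 244 FPKM. Sums of 6 endothelial markers (236 to 304 against 243 to 298), 6 macrophage markers (56.5 to 97.5 against 76.8 to 112) and 2 erythroid markers (716 to 6179 against 849 to 4284) overlapped between the groups. Of the endothelial markers 1 was higher and 2 were lower as deposited. After rescaling 4 endothelial markers and 1 macrophage marker were lower. The cardiomyocyte markers changed unequally, from 0.139 (Ryr2) to 1.53 (Actn2) times the WT mean. The part of these shifts in the values of the Eif genes was not tested. In bulk tissue fewer cells of a type, less RNA per cell and altered levels of single genes within cells cannot be told apart.

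Most Eif genes were higher in the knockout on the deposited scale, and fewer were so after rescaling. As deposited, 41 of 56 members were higher (73.2%, where 44.9% of all 11974 genes tested were) and 5 were lower (8.93%, where 16.4% of all genes were). After rescaling, 21 were higher (37.5%, against 26.9% of all genes) and 8 were lower (14.3%, against 26.7%). Quantile normalisation gave 24 higher, where 28.7% of all genes were, and 8 lower, where 25.6% were. The median log2 change of the 56 members was 0.45 as deposited and 0.18 rescaled. All knockout libraries lay above all WT libraries for 39 members (69.6%, against 41.7% of all genes) and below them for 5 (8.93%, against 15.3%). After rescaling these counts were 24 (42.9%, against 25.4%) and 9 (16.1%, against 25.6%). Without knockout 4, the library with the highest Myl7, 39 members were higher and 5 lower as deposited, and 22 were higher after rescaling.

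Both scales called 21 members higher and 5 lower, and quantile normalisation called the same 26 in the same direction. The share of all genes called alike on these scales was not counted, so this agreement cannot be set against it. The 21 were Eif1a, Eif2s1, Eif2s2, Eif2s3x, Eif2b2, Eif2b5, Eif2ak1, Eif2ak2, Eif2ak3, Eif3b, Eif3c, Eif3d, Eif3h, Eif3l, Eif4a1, Eif4h, Eif4e2, Eif5, Eif5a, Eif5a2 and Eif6. The 5 were Eif1, Eif2b4, Eif4e, Eif4e3 and Eif2c4. Between the deposited and rescaled scales, another 20 members were higher as deposited only, and 3 (Eif3f, Eif4a2 and Eif2c1) were lower after rescaling only. Quantile normalisation also called those 3 lower, and of the 20 it called Eif1ax, Eif3e and Eif3i higher.

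**Figure D1:**
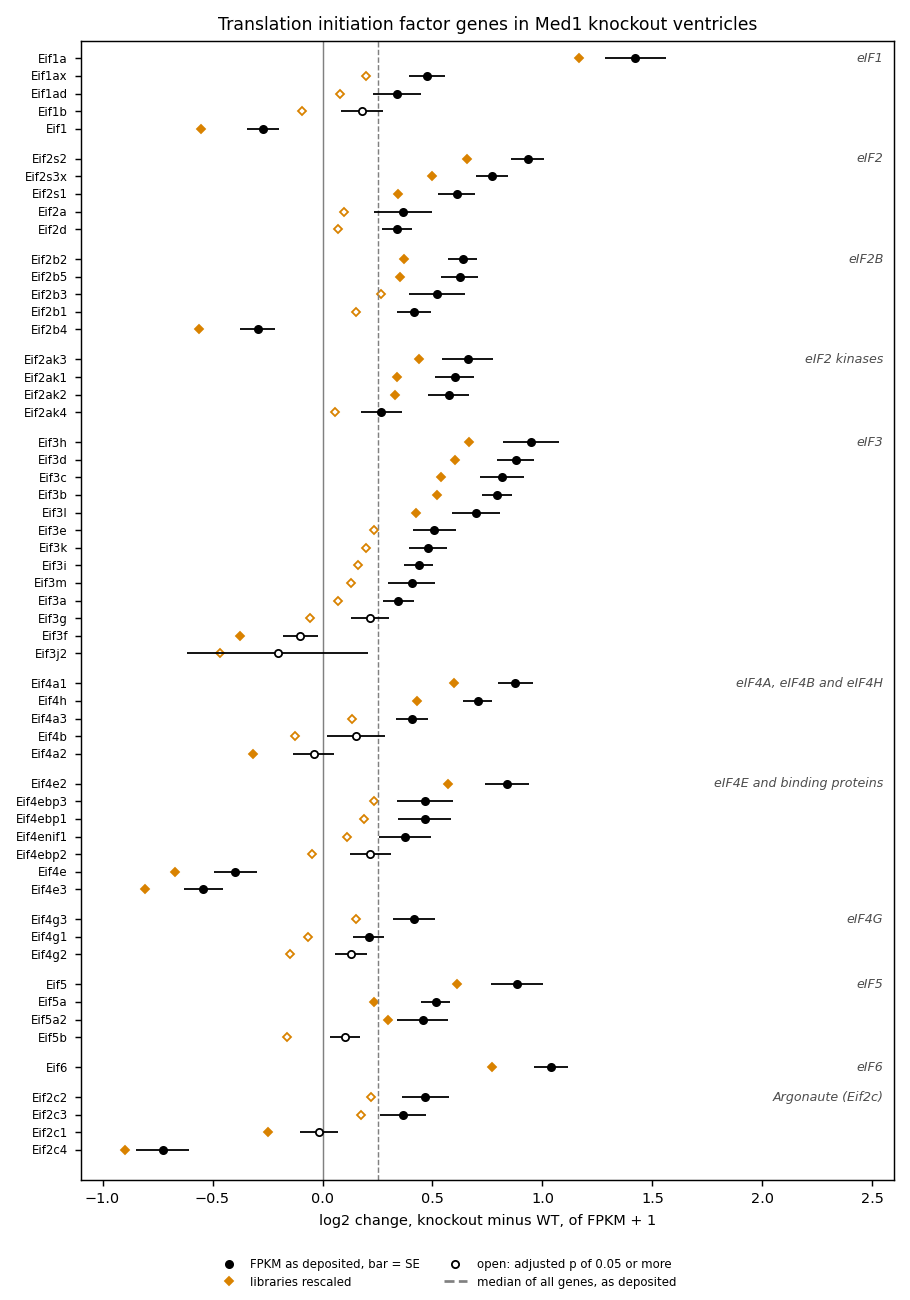
Log2 change (x axis, knockout minus WT, of FPKM + 1) of the 56 tested Eif members, grouped by factor; black circles are values as deposited with SE, orange diamonds values after rescaling, filled where the adjusted p is below 0.05, and the dashed line is the median of all genes (0.25). Most members lie right of 0 as deposited, and Eif1, Eif2b4, Eif4e, Eif4e3 and Eif2c4 lie left of 0 with filled symbols on both scales.

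The start codon factors moved in opposite directions within the same small group. Eif1, which encodes the factor that guards start codon choice and was the most abundant Eif gene, was at 345, 348, 349 and 320.2 FPKM in knockout 1 to 4 and at 424, 441, 383 and 399 in WT 1 to 4. Every knockout library was below every WT library, and Eif1 fell to 0.828 times the WT mean, log2 -0.27 (SE 0.07, adjusted p 0.00971), or -0.55 (adjusted p 0.000462) after rescaling. Its close relative Eif1b overlapped between the groups, at 42.5 to 52.8 against 39.3 to 48.2 FPKM, and was not called as deposited (log2 0.18, adjusted p 0.13) although it passed without WT 4 (log2 0.25, adjusted p 0.0431). Its change turned to -0.10 after rescaling.

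Eif1a and Eif1ax both encode eIF1A, which binds the decoding site of the small subunit; Eif1a lies at chr18:46597704-46610225 and Eif1ax at chrX:159372195-159385699 (mm10, as the table gives them). Eif1a had the largest change of the family, from 8.65, 6.48, 7.57 and 6.90 FPKM in WT 1 to 4 to 16.8, 20.4, 23.2 and 26.4 in knockout 1 to 4. That is 2.93 times the WT mean, log2 1.42 (SE 0.14, adjusted p 2.78e-05), or 1.17 (adjusted p 8.01e-05) after rescaling. Eif1ax stayed the more abundant copy in every library, at 92.5 to 112 FPKM in the knockout and 67.05 to 78.9 in WT. It was higher as deposited (log2 0.47) and not called after rescaling (0.20). Under quantile normalisation it was higher (log2 0.23, adjusted p 0.0344). The 2 copies are similar in sequence, so how the authors' counting split reads between them is uncertain. The ratio of Eif1a to Eif1ax in FPKM was 0.181, 0.204, 0.207 and 0.262 in knockout 1 to 4 and 0.121, 0.0889, 0.113 and 0.0874 in WT 1 to 4, with no overlap. On the log2 scale (of FPKM + 1) the difference was 0.95 (exact two-sided permutation p 0.0286, adjusted p 0.0476 over 5 ratios). Eif1ad, whose protein shares a domain with eIF1A, was higher as deposited only (log2 0.34, adjusted p 0.0222). That call was lost without knockout 3, WT 1, WT 3 or WT 4 (adjusted p 0.0511 to 0.0576), and 16.7% of its exon bases overlap Banf1 on the other strand.

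**Figure D2:**
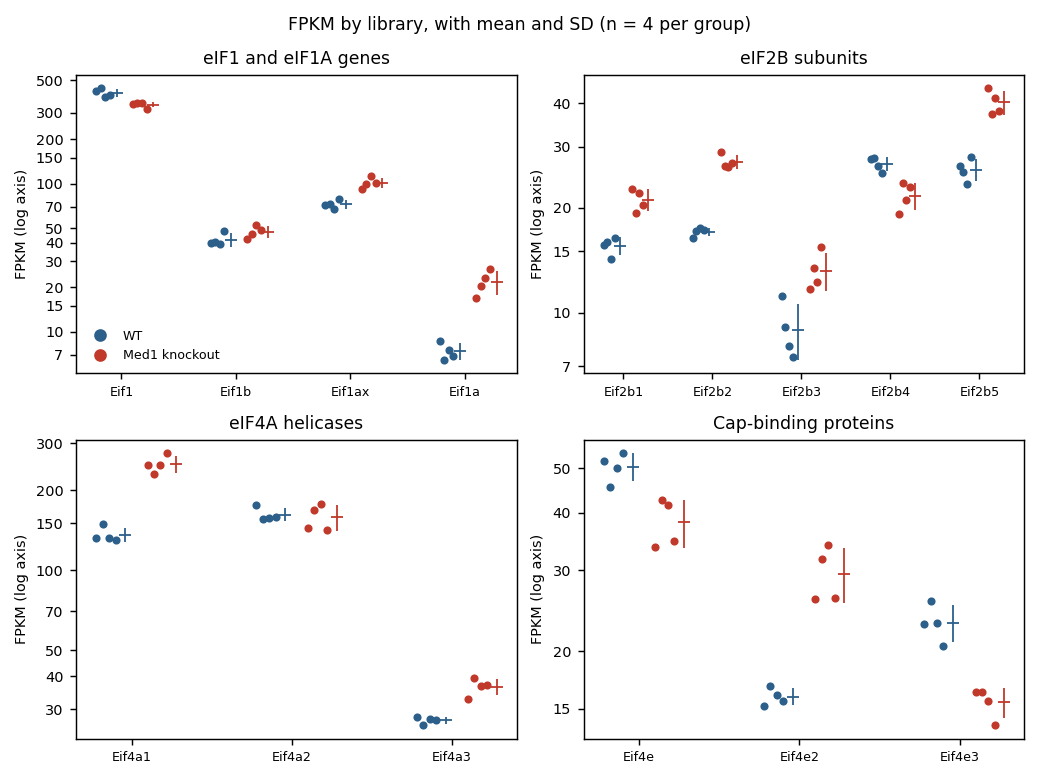
FPKM (y axes, log scale) in each library for the eIF1 and eIF1A genes, the eIF2B subunits, the eIF4A helicases and the cap-binding proteins; points are libraries, blue WT and red knockout, and crosses are means with SD (n = 4 per group). Eif1a, Eif1ax, Eif2b1, Eif2b2, Eif2b3, Eif2b5, Eif4a1, Eif4a3 and Eif4e2 lie wholly above WT as deposited. Eif1, Eif2b4, Eif4e and Eif4e3 lie wholly below it, and Eif1b and Eif4a2 overlap.

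All 3 subunits of eIF2 rose, as did 3 of the 4 kinases that phosphorylate it, where 44.9% of all genes were higher as deposited and 26.9% after rescaling. Eif2s2, the beta subunit, was at 79.1, 69.2, 83.9 and 77.8 FPKM in knockout 1 to 4 and at 41.1, 40.9, 37.6 and 40.8 in WT 1 to 4. The groups were far apart, at 1.93 times the WT mean and log2 0.93 (SE 0.08, adjusted p 1.16e-05), or 0.66 (adjusted p 9.93e-05) after rescaling. Eif2s3x, the X-linked gamma subunit that binds GTP and the initiator tRNA, was at 75.9, 67.5, 78.6 and 69.5 FPKM in the knockout and 43.4, 42.7, 41.2 and 41.6 in WT. It rose with log2 0.77 (SE 0.07, adjusted p 2.19e-05), or 0.50 (adjusted p 0.0004) after rescaling. Its Y-linked copy was left out, and reads that the 2 copies share cannot be placed with certainty. Eif2s1, the alpha subunit that carries the regulatory phosphorylation site, averaged 27.6 ± 2.98 FPKM in the knockout and 17.6 ± 0.416 in WT (SD, n = 4 each) and rose by less than the other subunits (log2 0.61, 0.34 rescaled; the difference between subunits was not tested).

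Eif2a and Eif2d are initiation factors outside the eIF2 complex that can deliver tRNA without it, and both were higher as deposited only. Eif2d had log2 0.34 (SE 0.07, adjusted p 0.00205), or 0.07 (adjusted p 0.47) after rescaling. Eif2a overlapped between the groups at 21.8 to 35.02 against 19.8 to 23.6 FPKM, with log2 0.37 (SE 0.13, adjusted p 0.0361), or 0.10 (adjusted p 0.528) after rescaling. Its deposited call was lost without knockout 1, 3 or 4 or WT 2, 3 or 4 (adjusted p 0.0559 to 0.0901) and with no minimum level (0.0585).

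The eIF2 kinases were less abundant than their substrate. Eif2ak1, the heme-regulated kinase, was the most abundant of the 4, at 18.4, 17.4, 20.7 and 18.7 FPKM in knockout 1 to 4 and 11.6, 11.6, 13.9 and 11.2 in WT 1 to 4. It rose without overlap, log2 0.60 (SE 0.09, adjusted p 0.000309), or 0.34 (adjusted p 0.00769) after rescaling. Of its exon bases 11.3% overlap Aimp2 on the other strand, and no source used here gives the strand setting of the authors' counting. Eif2ak2, the double-stranded RNA sensor PKR, rose from 5.32 ± 0.191 to 8.45 ± 1.13 FPKM (log2 0.57, 0.33 rescaled). Eif2ak3, the endoplasmic reticulum stress kinase PERK, rose from 2.98 ± 0.0739 to 5.35 ± 1.04 FPKM (log2 0.66, 0.44 rescaled). Eif2ak4, the amino acid sensor GCN2, was higher as deposited only (log2 0.27, adjusted p 0.0321, 0.06 rescaled). Leaving out any library other than knockout 1 or WT 3 ended that call (adjusted p 0.0530 to 0.0859), as did dropping the minimum level (0.0520).

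The 5 subunits of eIF2B, the exchange factor that acts on eIF2, did not move as 1 block. Eif2b5, the catalytic epsilon subunit, was at 44.2, 37.3, 41.6 and 38.1 FPKM in knockout 1 to 4 and 26.5, 25.3, 23.4 and 28.0 in WT 1 to 4, with log2 0.62 (SE 0.08, adjusted p 0.000186), or 0.35 (adjusted p 0.00818) after rescaling. Eif2b2, the beta subunit, was at 29.01, 26.4, 26.2 and 27.0 FPKM in the knockout and 16.4, 17.2, 17.5 and 17.3 in WT, with log2 0.64 (SE 0.06, adjusted p 3.59e-05), or 0.37 (adjusted p 0.00136) after rescaling. Eif2b4, the delta subunit, went the other way, at 19.2, 23.5, 21.04 and 22.99 FPKM in the knockout and 27.7, 27.8, 26.3 and 25.2 in WT, and fell with log2 -0.30 (SE 0.08, adjusted p 0.0108), or -0.56 (adjusted p 0.000451) after rescaling. All 3 genes separated the groups completely on both scales, and Eif2b1 and Eif2b3 did so as deposited only. Eif2b1 (alpha) and Eif2b3 (gamma) were higher as deposited only, at log2 0.42 and 0.52. Their rescaled changes were 0.15 and 0.27, and Eif2b3 passed after rescaling without WT 1 (adjusted p 0.0259). Eif2b4 and Eif2b5 were about equal in WT, with Eif2b4 at 0.899 to 1.13 times Eif2b5, and unequal in the knockout, at 0.434 to 0.631 times. This pair was chosen after its values were seen and has no test.

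To show what lies upstream of a subunit that rose and one that fell, 200 bases before and 20 bases from the start site of Eif2b2 and Eif2b4 are given from RefSeq (build GRCm38.p6, 5′ to 3′ on the gene's strand). Capitals mark 3 promoter motifs found by letter search on both strands: the E-box CACGTG, the ETS core CCGGAAG and the CCAAT box, printed as ATTGG where it lies on the other strand. Eif2b2 lies on the plus strand (chr12:85219281-85219500) and Eif2b4 on the minus strand (chr5:31193120-31193339).
Eif2b2: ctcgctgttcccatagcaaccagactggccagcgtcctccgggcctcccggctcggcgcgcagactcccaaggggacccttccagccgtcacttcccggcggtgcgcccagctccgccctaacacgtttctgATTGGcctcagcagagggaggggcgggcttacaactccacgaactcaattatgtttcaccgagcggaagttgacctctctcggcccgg
Eif2b4: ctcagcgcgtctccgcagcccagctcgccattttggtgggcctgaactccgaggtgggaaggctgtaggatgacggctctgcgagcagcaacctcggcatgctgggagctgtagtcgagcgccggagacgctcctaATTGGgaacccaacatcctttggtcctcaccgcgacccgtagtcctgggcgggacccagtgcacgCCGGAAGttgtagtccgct
Both stretches hold a CCAAT box on the other strand, at -68 from the start site in Eif2b2 and -64 in Eif2b4, and Eif2b4 also holds CCGGAAG at 1 (first base of the match, with the start base as 0). In the longer window of 300 bases CCGGAAG is present in both genes. The subunits that went opposite ways share the CCAAT box at nearly the same place, no 2 matches overlap in either stretch, and a match is a description of letters, not of a bound site.

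RefSeq promoters of 300 bases (250 before the start site) could be matched for 43 of the 56 members and for 8523 of the genes tested. CCGGAAG was present in 14 of the 43 (32.6%) and in 19.3% of all matched promoters, and of the 14 genes 6 were higher and 1 lower after rescaling. CACGTG was present in 8 (18.6%, against 10.6% of all), with 3 higher and 1 lower. CCAAT was present in 13 (30.2%, against 38.5%), with 7 higher and 4 lower. GGGCGG, the GC box, was present in 32 (74.4%, against 67.0%), and TATAAA, the TATA box, in 3 (6.98%, against 7.09%). TGATGNAAN, the amino acid response element, was present in 1, Eif2s3x (2.33%, against 2.04%). No motif was found in all members that rose or all that fell. After rescaling, 37.5% of all 56 members were higher and 14.3% lower, where 26.9% and 26.7% of all genes tested were. Whether genes with a motif were called more often was not tested.

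eIF3, the largest initiation complex, had 10 of 13 tested subunits higher as deposited (44.9% of all genes were). After rescaling 5 were higher and 1 lower, where 26.9% and 26.7% of all genes were. Eif3h, the most abundant subunit, was at 296, 222, 243 and 187 FPKM in knockout 1 to 4 and 122, 118, 128 and 115 in WT 1 to 4. Knockout 1 was highest, all 4 were above WT, and Eif3h rose with log2 0.95 (SE 0.13, adjusted p 0.000187), or 0.67 (adjusted p 0.00216) after rescaling. Eif3d, whose protein can bind the mRNA cap, was at 66.9, 62.9, 67.9 and 64.03 FPKM in the knockout and 37.1, 35.02, 38.4 and 30.6 in WT. It rose with log2 0.88 (SE 0.08, adjusted p 2.39e-05), or 0.60 (adjusted p 0.000192) after rescaling, and 32.9% of its exon bases overlap the antisense gene Gm17638.

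Eif3b and Eif3c encode core subunits. Eif3b was at 58.05, 66.6, 64.7 and 65.2 FPKM in the knockout and 36.4, 37.3, 36.3 and 34.9 in WT, with log2 0.79 (SE 0.07, adjusted p 1.47e-05), or 0.52 (adjusted p 0.000325) after rescaling. Eif3c was at 119.5, 94.7, 118 and 97.1 FPKM in the knockout and 66.7, 59.1, 59.4 and 55.6 in WT, with log2 0.82 (SE 0.10, adjusted p 0.000109), or 0.54 (adjusted p 0.00139) after rescaling. Neither overlapped between the groups. Eif3l, which neighbours eIF3k in the complex, rose from 46.8 ± 3.29 to 76.99 ± 11.7 FPKM (log2 0.70, 0.42 rescaled).

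Another 5 eIF3 subunits were higher as deposited and were not called after rescaling. Eif3a, the largest scaffold subunit, averaged 69.1 ± 2.57 FPKM in the knockout and 54.3 ± 3.32 in WT and was higher as deposited only (log2 0.34, 0.07 rescaled). The same held for Eif3k (log2 0.48, 0.20 rescaled) and Eif3m (log2 0.41, 0.13 rescaled). Eif3e (log2 0.51, 0.23 rescaled) and Eif3i (log2 0.44, 0.16 rescaled) were higher as deposited and not called after rescaling. Quantile normalisation called both of these higher (adjusted p 0.0272 and 0.0174). After rescaling, Eif3e passed without knockout 4 (adjusted p 0.0492), as did Eif3k (0.0176). Eif3g, an RNA-binding subunit, missed the threshold narrowly (log2 0.22, adjusted p 0.0502), passed without WT 1 (0.0189), and had a change of -0.06 after rescaling.

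Eif3f, a subunit of the same module as Eif3h, did not follow it. Eif3f was at 69.2, 65.7, 63.6 and 56.05 FPKM in knockout 1 to 4 and 66.8, 71.8, 66.6 and 67.5 in WT 1 to 4, which overlap, and it was not called as deposited (log2 -0.10, adjusted p 0.29) but lower after rescaling (-0.38, adjusted p 0.00595). The ratio of Eif3f to Eif3h, chosen after values were seen and not tested, was 0.234 to 0.2997 in the knockout and 0.519 to 0.607 in WT. The deposited table places Eif3j2 at nearly the same locus as the near-identical and unmeasured Eif3j1. Eif3j2 varied most, at 16.7, 14.5, 29.9 and 10.2 FPKM in the knockout and 37.6, 11.1, 12.3 and 25.9 in WT. Its change of -0.20 (SE 0.41) is within that spread and is uncertain because reads of the 2 genes cannot be told apart.

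**Figure D3:**
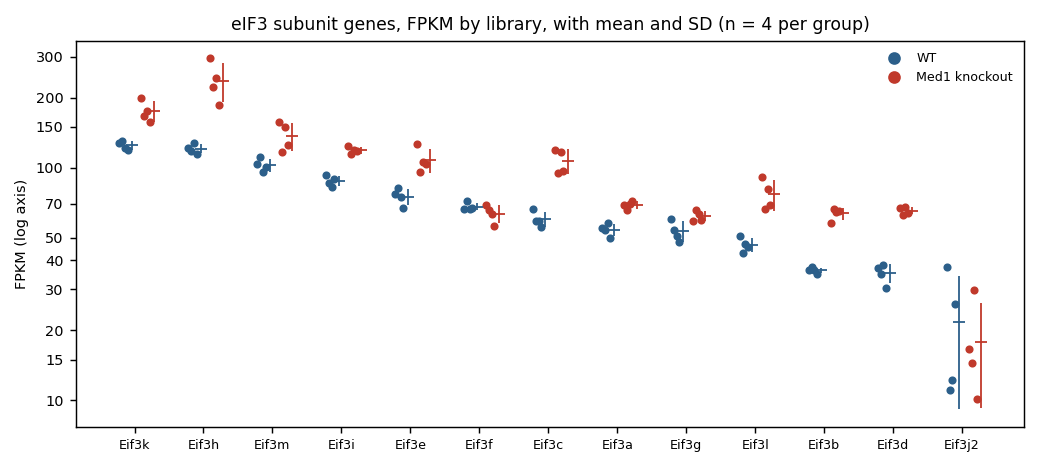
FPKM (log scale) of the 13 measured eIF3 subunits in each library; points are libraries, blue WT and red knockout, and crosses are means with SD (n = 4 per group). Eif3h, Eif3d, Eif3c, Eif3b, Eif3l, Eif3a, Eif3e, Eif3i, Eif3k and Eif3m lie wholly above WT as deposited. Eif3f, Eif3g and Eif3j2 overlap, and Eif3j2 has the widest spread.

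Of the paralogous eIF4A helicases, which unwind mRNA leaders, Eif4a1 rose and Eif4a2 did not. Eif4a1 was at 248, 229, 249 and 275 FPKM in knockout 1 to 4 and 132, 149, 133 and 129.9 in WT 1 to 4. It was 1.84 times the WT mean, log2 0.88 (SE 0.08, adjusted p 2.10e-05), or 0.60 (adjusted p 0.000179) after rescaling. Eif4a2 was at 145, 168, 178 and 141 FPKM in the knockout and 176, 156, 158 and 158 in WT, with WT inside the knockout's range. As deposited it was not called (log2 -0.04, adjusted p 0.73), and after rescaling it was lower (-0.32, adjusted p 0.0257). The rescaled call was lost without knockout 1, knockout 4, WT 1 or WT 4 (adjusted p 0.0522 to 0.0720), and the deposited change turned to 0.00039 without knockout 1 and 0.012 without knockout 4.

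The order of the pair turned over. Eif4a1 was 0.754, 0.954, 0.842 and 0.820 times Eif4a2 in WT 1 to 4, always the lower, and 1.72, 1.36, 1.40 and 1.95 times Eif4a2 in knockout 1 to 4, always the higher. These ratios of FPKM do not depend on how a library is scaled. The test used ratios of FPKM + 1, which shift slightly with scaling; their mean log2 was 0.66 ± 0.24 in the knockout and -0.25 ± 0.14 in WT (SD, n = 4 each), a difference of 0.92 (exact two-sided permutation p 0.0286, adjusted p 0.0476 over 5 ratios). The helicases are similar in sequence, so reads could be split between them, and 5.47% of the exon bases of Eif4a2 overlap Rfc4 on the other strand.

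The start regions of the pair differ in the letters searched. Eif4a1 lies on the minus strand (chr11:69672404-69672623) and Eif4a2 on the plus strand (chr16:23107268-23107487), with the same window, build and capitals as above.
Eif4a1: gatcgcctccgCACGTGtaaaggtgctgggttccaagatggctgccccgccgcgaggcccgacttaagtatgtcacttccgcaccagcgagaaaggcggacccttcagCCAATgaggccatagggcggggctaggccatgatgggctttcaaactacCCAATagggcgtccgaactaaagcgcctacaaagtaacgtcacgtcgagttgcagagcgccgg
Eif4a2: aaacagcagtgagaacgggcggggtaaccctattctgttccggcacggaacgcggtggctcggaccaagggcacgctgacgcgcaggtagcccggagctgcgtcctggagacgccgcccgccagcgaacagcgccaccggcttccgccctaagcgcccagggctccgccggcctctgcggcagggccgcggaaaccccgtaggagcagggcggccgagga
Eif4a1, which rose, holds an E-box at -189 and CCAAT boxes at -92 and -43 from the start site, and none of the 3 motifs was found in this stretch of Eif4a2.

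Eif4a3, the relative that anchors the exon junction complex, was higher as deposited only (log2 0.41, 0.13 rescaled). Eif4h and Eif4b encode cofactors that stimulate the helicase. Eif4h rose from 65.1 ± 2.32 to 107 ± 5.13 FPKM, log2 0.70 (SE 0.07, adjusted p 2.37e-05), or 0.43 (adjusted p 0.000973) after rescaling. Eif4b overlapped between the groups at 53.4 to 84.05 against 51.3 to 59.8 FPKM and was not called on either scale (log2 0.15, -0.12 rescaled), though it was lower after rescaling without knockout 1 (-0.25, adjusted p 0.0445).

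The cap-binding genes diverged. Eif4e, which encodes the main cap-binding factor, was at 33.7, 42.6, 41.5 and 34.8 FPKM in knockout 1 to 4 and 51.9, 45.6, 50.2 and 53.9 in WT 1 to 4, with every knockout library below every WT library. It fell, log2 -0.40 (SE 0.10, adjusted p 0.00594), or -0.67 (adjusted p 0.00073) after rescaling. Eif4e3, a relative with atypical cap binding, was at 16.3, 16.3, 15.6 and 13.8 FPKM in the knockout and 22.9, 25.7, 23.1 and 20.5 in WT. It fell, log2 -0.54 (SE 0.09, adjusted p 0.000568), or -0.81 (adjusted p 9.24e-05) after rescaling, with 14.8% of its exon bases shared with the same-strand gene Gm20696. Eif4e2, whose protein (4EHP) binds caps without eIF4G and represses translation, went up from 15.2, 16.8, 16.1 and 15.6 FPKM in WT 1 to 4 to 26.03, 31.8, 34.02 and 26.1 in knockout 1 to 4. It rose to 1.85 times the WT mean, log2 0.84 (SE 0.10, adjusted p 8.34e-05), or 0.57 (adjusted p 0.00171) after rescaling. The ratio of Eif4e2 to Eif4e in FPKM was 0.745 to 0.819 in the knockout and 0.289 to 0.368 in WT. The ratio of Eif4e3 to Eif4e overlapped, at 0.375 to 0.485 against 0.381 to 0.564. Both ratios were chosen after values were seen and have no test.

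Start regions of the gene that fell and the relative that rose are shown for comparison, both on the plus strand: Eif4e (chr3:138525991-138526210) and Eif4e2 (chr1:87213714-87213933).
Eif4e: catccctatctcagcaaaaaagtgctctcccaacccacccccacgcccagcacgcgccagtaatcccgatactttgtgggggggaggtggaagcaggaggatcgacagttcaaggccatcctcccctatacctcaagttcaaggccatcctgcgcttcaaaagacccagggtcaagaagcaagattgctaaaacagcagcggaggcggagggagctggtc
Eif4e2: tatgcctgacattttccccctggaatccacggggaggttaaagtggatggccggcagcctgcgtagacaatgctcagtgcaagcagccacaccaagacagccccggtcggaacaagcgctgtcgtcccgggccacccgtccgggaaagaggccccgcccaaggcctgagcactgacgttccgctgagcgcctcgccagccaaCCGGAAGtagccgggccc
Eif4e2 holds CCGGAAG at 2, within the first bases after the start site, and none of the 3 motifs was found in this stretch of Eif4e.

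The genes of the 4E-binding proteins, which sequester eIF4E, were not called after rescaling. Eif4ebp1, the most abundant gene of the cap-binding group, was at 103, 122, 98.4 and 98.3 FPKM in knockout 1 to 4 and 81.9, 89.9, 69.3 and 65.03 in WT 1 to 4. All knockout libraries were above WT as deposited (log2 0.46, SE 0.12, adjusted p 0.00732), but the rescaled change of 0.19 was not called (adjusted p 0.236). The ratio of Eif4ebp1 to Eif4e in FPKM was 3.06, 2.86, 2.37 and 2.82 in knockout 1 to 4 and 1.58, 1.97, 1.38 and 1.21 in WT 1 to 4. The log2 difference, of FPKM + 1, was 0.86 (exact two-sided permutation p 0.0286, adjusted p 0.0476 over 5 ratios). Without knockout 1, 2 or 4 the exact p was 0.0571.

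Eif4ebp2 overlapped between the groups at 17.99 to 21.6 against 14.98 to 18.3 FPKM and was not called (adjusted p 0.0668). The ratio of Eif4ebp1 to Eif4ebp2 overlapped too, at 4.77 to 6.78 against 3.91 to 5.68, and the log2 difference of FPKM + 1 was 0.25 (exact permutation p 0.171, adjusted p 0.200). Eif4ebp3 was higher as deposited only (log2 0.47, 0.23 rescaled), and 67.3% of its exon bases are shared with a same-strand gene model, AC115631.1. Eif4enif1, which encodes the eIF4E transporter, was higher as deposited only (log2 0.37, 0.11 rescaled), a call lost without WT 2 (adjusted p 0.0557).

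**Figure D4:**
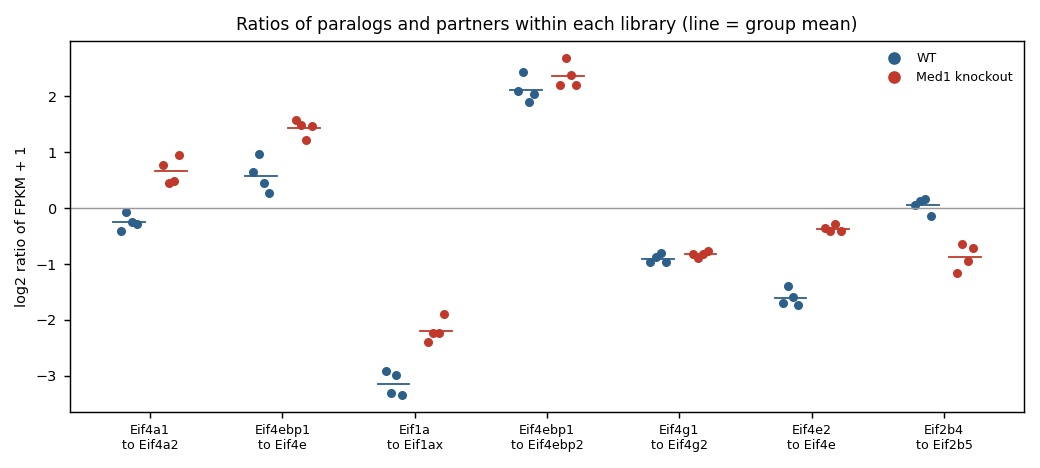
Log2 ratio of FPKM + 1 (y axis) of pairs of Eif members within each library; points are libraries, blue WT and red knockout, and horizontal lines are group means (n = 4 per group). Eif4a1 to Eif4a2, Eif4ebp1 to Eif4e and Eif1a to Eif1ax do not overlap between the groups, whereas Eif4ebp1 to Eif4ebp2 and Eif4g1 to Eif4g2 do; Eif4e2 to Eif4e and Eif2b4 to Eif2b5 were chosen after values were seen.

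The 3 eIF4G scaffold genes lay at log2 changes between -0.15 and 0.15 after rescaling, where no call was made. Eif4g2, which encodes a relative that lacks the eIF4E-binding site, was the most abundant, at 160.1, 184, 179.5 and 166 FPKM in knockout 1 to 4 and 166, 156, 152 and 155 in WT 1 to 4. The groups overlapped, and it was not called (log2 0.13, adjusted p 0.147; -0.15 rescaled). Eif4g1, the main scaffold, was higher as deposited (log2 0.21, adjusted p 0.0251) with a change of -0.07 after rescaling, and its deposited call was lost without knockout 2, knockout 3, WT 1 or WT 4 (adjusted p 0.0507 to 0.0725). Eif4g3 was higher as deposited only (log2 0.42, 0.15 rescaled). The ratio of Eif4g1 to Eif4g2 in FPKM was 0.540 to 0.587 in the knockout and 0.507 to 0.575 in WT, and the log2 difference of FPKM + 1 was 0.08 (exact permutation p 0.200, adjusted p 0.200).

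Of the factors that act at or after start codon recognition, Eif5, Eif5a, Eif5a2 and Eif6 rose and Eif5b did not pass the test. The share of all genes that were higher was 44.9% as deposited and 26.9% after rescaling. Eif5, which triggers GTP hydrolysis by eIF2 at the start codon, was at 75.9, 79.4, 85.5 and 81.1 FPKM in knockout 1 to 4 and 48.3, 51.5, 38.9 and 35.5 in WT 1 to 4. The groups did not overlap, log2 0.89 (SE 0.12, adjusted p 0.000181), or 0.61 (adjusted p 0.00191) after rescaling. Eif5b, the GTPase that joins the large subunit, was at 16.4 to 18.4 FPKM in the knockout and 15.5 to 16.9 in WT and was not called on either scale (log2 0.10, -0.16 rescaled), with 15.9% of its exon bases overlapping Rev1 on the other strand. Eif5 was 4.41 to 4.94 times Eif5b in the knockout and 2.25 to 3.05 times in WT, a pair chosen after values were seen, with no test.

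Eif6, whose protein keeps the large subunit from joining too early, was at 46.8, 41.9, 43.9 and 44.1 FPKM in knockout 1 to 4 and 21.8, 22.9, 19.4 and 19.98 in WT 1 to 4. It was 2.10 times the WT mean in the knockout and had the lowest adjusted p of the family as deposited, log2 1.04 (SE 0.08, adjusted p 6.20e-06), or 0.77 (adjusted p 3.64e-05) after rescaling. Of its exon bases 5.61% overlap the antisense gene Gm16098.

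Eif5a, the hypusine-bearing factor that also helps elongation past stalled sites, was at 326, 355, 323 and 336 FPKM in knockout 1 to 4 and 224, 238, 231 and 244 in WT 1 to 4. It rose without overlap, log2 0.51 (SE 0.07, adjusted p 0.000148), or 0.23 (adjusted p 0.0298) after rescaling. The rescaled call was lost without knockout 2, knockout 3, WT 1, WT 2 or WT 3 (adjusted p 0.0518 to 0.0880). Its paralog Eif5a2 was near the minimum level, at 1.52, 1.47, 1.73 and 2.02 FPKM in the knockout and 0.904, 0.856, 1.07 and 0.979 in WT, with log2 0.46 (SE 0.12, adjusted p 0.00694), or 0.30 (adjusted p 0.0448) after rescaling. At that level FPKM + 1 understates the change, and the rescaled call was lost without any library other than knockout 1 (adjusted p 0.0560 to 0.101).

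The 4 Argonaute genes, which load small RNAs and are no initiation factors, split by member. Eif2c2 (Ago2, the slicing Argonaute), the most abundant, was at 8.89, 8.53, 9.05 and 10.3 FPKM in knockout 1 to 4 and 7.10, 5.38, 7.28 and 5.84 in WT 1 to 4 and was higher as deposited only (log2 0.47, 0.22 rescaled). Eif2c4 (Ago4) was at 1.47, 1.30, 0.903 and 0.916 FPKM in the knockout and 2.76, 2.62, 2.38 and 2.38 in WT. It fell without overlap, to 0.453 times the WT mean, log2 -0.73 (SE 0.12, adjusted p 0.000669), or -0.90 (adjusted p 0.000223) after rescaling. Eif2c3 (Ago3) was higher as deposited only (log2 0.37, 0.18 rescaled). Eif2c1 (Ago1) overlapped as deposited (-0.02) and was lower after rescaling (-0.25, adjusted p 0.0249), a call lost without knockout 2, knockout 3, WT 2 or WT 4 (adjusted p 0.0532 to 0.0678). Eif2c1, Eif2c3 and Eif2c4 lie side by side on chromosome 4. Without the Argonaute genes the family had 39 of 52 members higher and 4 lower as deposited, where 44.9% and 16.4% of all genes were. After rescaling 21 of them were higher and 6 lower, where 26.9% and 26.7% of all genes were.

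Of 30 partner genes that regulate or assist initiation without an Eif symbol, 18 were higher and 2 lower as deposited, where 44.9% and 16.4% of all genes were. After rescaling 9 were higher and 3 lower, where 26.9% and 26.7% of all genes were, so the share higher was near that of all genes. The median log2 changes were 0.35 and 0.08. Ppp1r15a (GADD34), the stress-induced subunit that directs a phosphatase to eIF2 alpha, was at 48.4, 58.2, 52.8 and 43.2 FPKM in knockout 1 to 4 and 11.3, 10.7, 10.3 and 7.53 in WT 1 to 4. It was 5.09 times the WT mean, log2 2.24 (SE 0.13, adjusted p 2.09e-06), or 1.98 (adjusted p 5.14e-06) after rescaling. Ppp1r15b, its constitutive relative, rose less (log2 0.56, 0.31 rescaled; the difference between the 2 was not tested). Dnajc3, an inhibitor of the eIF2 kinases PKR and PERK, rose from 15.5 ± 2.25 to 27.5 ± 2.74 FPKM (log2 0.79, 0.53 rescaled). Impact, an inhibitor of GCN2 activation, also rose (log2 0.50, 0.25 rescaled).

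Pabpc4, a poly(A)-binding protein gene, fell from 55.4, 54.9, 48.7 and 52.6 FPKM in WT 1 to 4 to 20.98, 36.6, 29.2 and 23.4 in knockout 1 to 4, log2 -0.95 (SE 0.15, adjusted p 0.000558), or -1.22 (adjusted p 0.00025) after rescaling. Bzw1 and Bzw2 encode mimics of eIF5 and moved in opposite directions. Bzw1 rose from 44.2 ± 0.598 to 78.5 ± 5.30 FPKM (log2 0.81, 0.54 rescaled), and Bzw2 fell from 96.4 ± 5.96 to 71.7 ± 6.89 FPKM (log2 -0.43, -0.70 rescaled). The S6 kinase genes Rps6kb1 (log2 0.79, 0.53 rescaled) and Rps6kb2 (log2 0.78, 0.52 rescaled), whose products act downstream of mTOR, both rose. Ddx3x, a leader-unwinding helicase gene (log2 0.71, 0.44 rescaled), and Abce1, a ribosome-recycling factor gene (log2 0.60, 0.33 rescaled), rose as well. Paip2b, which encodes a repressor of poly(A)-binding protein, was lower after rescaling (-0.48, adjusted p 0.00203) and under quantile normalisation (-0.48, adjusted p 0.00144). As deposited it was not called, and it passed there without knockout 1 alone (adjusted p 0.0276).

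**Figure D5:**
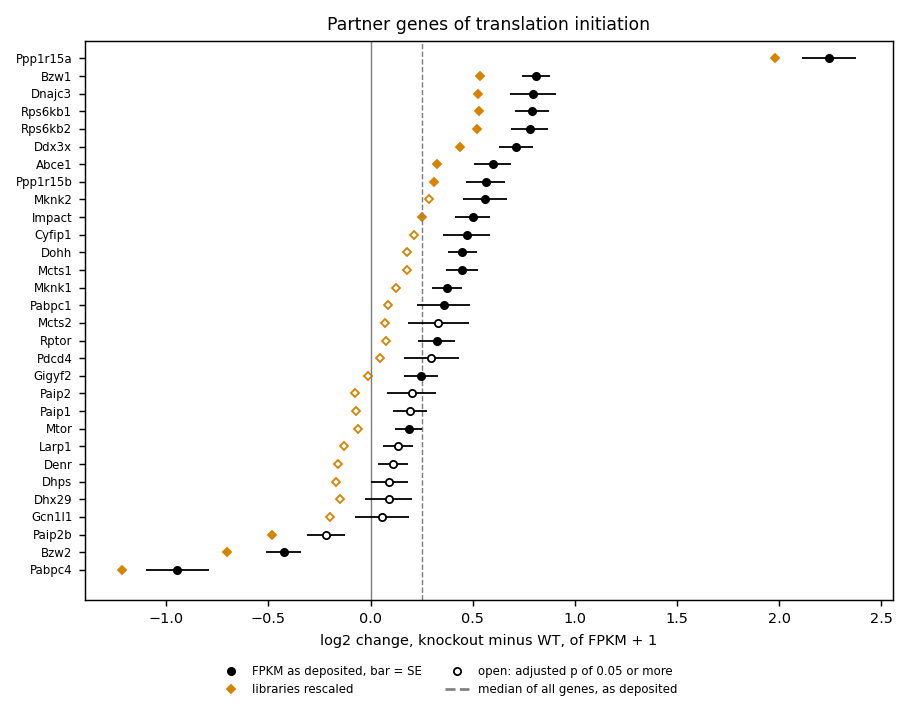
Log2 change (x axis, knockout minus WT, of FPKM + 1) of the 30 partner genes; black circles are values as deposited with SE, orange diamonds values after rescaling, filled where the adjusted p is below 0.05, and the dashed line is the median of all genes (0.25). Ppp1r15a lies far right of the rest at 2.24, and Pabpc4 and Bzw2 lie left of 0 with filled symbols on both scales.

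The authors' deposited table of their own comparison tested 56 Eif members. In the authors' deposited table, there were 18 members significant and higher, where 23.1% of 12539 genes were, and 6 were significant and lower, where 22.8% were. The 6 were Eif1, Eif2b4, Eif4e, Eif4e3, Eif2c4 and Eif3f. All 24 were also called in the same direction after rescaling, and the 3 members that rose here and were not significant in the authors' deposited table were Eif2ak1, Eif5a and Eif5a2. Over the members, log2 changes of the authors' deposited table were a median of -0.27 away from those of the library values as deposited and 0.01 away from the rescaled ones. The pooled FPKM of that table were a median of 1.29 times the mean of the 4 libraries in WT and 1.06 times in the knockout.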

How the data were processed

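Poly(A) RNA of 8 ventricle libraries (4 Med1 knockout, 4 WT) was read on an Illumina platform. The authors aligned reads to mm10 with TopHat (1.0.0, per the submitters' processing notes) and assembled transcripts with Cufflinks, per the series' design text; no source used here gives the strand setting or the annotation. The deposited table holds FPKM per gene and library, with 0.001 standing for 0 (set to 0 here) and words in place of failed or undersupplied estimates; 312 rows were undersupplied in every library. Pooled FPKM, log2 fold change, p-value and q-value per gene come from the Cuffdiff comparison that the authors deposited beside it. Fragment totals are unknown.

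Genes whose mean over the 8 libraries reached 1 FPKM (11974) were tested as log2(FPKM + 1) with limma (3.58.1, R 4.3.3), with an intensity trend and no covariate, and Benjamini-Hochberg adjustment over all of them (threshold 0.05, two-sided). Log2 changes on this scale understate those of low genes. Median-of-ratios rescaling and quantile normalisation were alternatives, as were the pseudocount, the minimum, limma's trend, robust and weighting options, a replicate block and each library left out. Ratios of 2 members were tested by exact permutation. The fit was tested on simulated data. Values in every library are given for the 12 called members with the largest changes and for the most abundant member of each factor group, and the 6 called partner genes with the largest changes are named; other names were chosen after values were seen. The members and lists were chosen with earlier results of these data known. Promoters were RefSeq windows whose start site lay within 500 bases of the end of the deposited locus where the gene starts. Exon overlaps were counted in GENCODE vM21.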

Additional observations from a re-analysis of the deposited data

Results flagged for a closer look

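In 7 of 113 groups of 4 libraries, 1 library lay apart from the other 3, with a gap to the nearest of them that was large for the group's range; chance gives about 1 in 20 such groups. Eif1 was at 320.2 FPKM in knockout 4, below 345 to 349 in the other knockout libraries. Eif1b was at 48.2 FPKM in WT 4, above 39.3 to 40.2 in the others. Eif2s2 was at 37.6 FPKM in WT 3, below 40.8 to 41.1, and Eif2ak1 was at 13.9 FPKM in the same library, above 11.2 to 11.6. Eif4a1 was at 149 FPKM in WT 2, above 129.9 to 133 in the others. Eif4a2 was at 175.5 FPKM in WT 1, above 156 to 158 in the others. Eif4e1b was at 0.113 FPKM in WT 4 and at 0 in the other WT libraries. Knockout 4 also had the highest levels of the atrial markers Myl7 and Sln; their part in its Eif1 level was not tested.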

How the results depend on the processing

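Scaling changed the counts most. As deposited, 5371 genes were higher and 1964 lower; rescaling gave 3218 and 3203, and quantile normalisation 3437 and 3067. For the 56 members the counts of 41 higher and 5 lower became 21 and 8 with rescaling and 24 and 8 with quantile normalisation. Rescaling with the replicate block (chosen after seeing the data, as were all pairs of rescaling with another choice) gave 19 higher, with a pseudocount of 0.1 it gave 21 and 8, and with 1 library left out 19 to 22 higher (20 without WT 1 or WT 4) and 6 to 8 lower. Of the partner genes 18 were higher as deposited, 9 rescaled and 11 with quantile normalisation. Leaving out 1 library on the deposited scale left 37 to 40 members higher and 5 lower. Signs turned under rescaling and quantile normalisation for Eif1b (-0.10 and -0.10), Eif3g (-0.058 and -0.049), Eif4b (-0.12 and -0.10), Eif4ebp2 (-0.048 and -0.032), Eif4g1 (-0.067 and -0.017), Eif4g2 (-0.15 and -0.10) and Eif5b (-0.16 and -0.15). Near 0, Eif3j2 turned to 0.11 with array weights, 0.013 without knockout 4 and 0.11 without WT 1 (lowest -0.48, without knockout 3), Eif4a2 to 0.043 with array weights, 0.00039 without knockout 1 and 0.012 without knockout 4, and Eif2c1 to 0.045 without knockout 2 and 0.0080 without WT 2 (lowest -0.0524, without knockout 4). Eif4ebp1 to Eif4e kept a log2 difference of 0.75 to 0.99 without 1 library, with an exact p of 0.0571 at 0.81, 0.84 and 0.85 (without knockout 1, 2 and 4). With no pseudocount (chosen after seeing the data) each of the 5 ratio tests kept its call and direction. With 3 libraries left in a group the exact test has fewer assignments. A replicate block left 39 members higher and 5 lower, and it ended the deposited calls of Eif2ak4 (adjusted p 0.0820) and Eif4g1 (0.0549). With rescaling, the block ended the calls of Eif4a2 (0.0631), Eif5a (0.0746), Eif5a2 (0.0963) and Eif2c1 (0.0714). Same-numbered libraries did not deviate together (correlations -0.0409 to 0.140, and 1 of 4 correlated best with its own number), so the numbers were not taken as pairs. The causes of these changes were not tested. Depth is unknown in fragments, so precision rests on the spread of 4 libraries per group.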
